A study of Rattus norvegicus with 10 samples.

Results

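The macrophage and myeloid module is a set of 34 genes that macrophages, monocytes and related white blood cells use, from surface receptors to lysosomal enzymes. Its members were chosen by gene name: a member was measured by the probe sets annotated to that gene alone, and by the probe set with the highest mean signal where there were several. On that rule 32 of the 34 genes were measured, out of 14217 genes with a probe set of their own on the array. The scavenger receptor genes Msr1 and Marco had no such probe set in the annotation used here. Of the 32 measured members, 31 lay above the filter on dim probe sets, a mean log2 signal of 5.15, and Csf3r, with a mean of 4.06, lay below it.

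The study profiled 5 mammary tumours of outbred Sprague-Dawley females (rats), each sampled at an early and a late moment. Every tumour, in both groups, had been induced by a single oral dose of 100 mg/kg of the carcinogen 7,12-dimethylbenz(a)anthracene (DMBA), and no other treatment was given. The total tumour samples, 5 arrays, were taken at an age of 19 weeks. The biopsies, 5 arrays, were needle cores of 0.7 cm by 2.5 mm, taken at 12 weeks when the tumour had reached 2 cm3. Tumours were picked for histological grade II, and the RNA was kept in a preservative before extraction. The labels name the tumours 31D3, 32D1, 37I1, 50I1 and 52I4 and do not say whether they came from different rats, so p-values speak of the spread among tumours, not animals. For the late samples the series text speaks of a needle core and the sample labels of a total tumour, and the name in the sample labels is used. Age, sampling moment and, by the sample labels, the way of sampling went with the group, so their parts cannot be told apart. The serial codes in the sample titles also went with the group, lower in all biopsies than in all total tumours. What these codes stand for is not known here.

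Macrophages of the mammary gland arise from blood monocytes and from cells that settle in the tissue early in life. They depend on signals through the CSF1 receptor, engulf dying cells and microbes, and digest them in lysosomes. In mammary tumours they are among the most common white blood cells, and they lie in the stroma and between the epithelial cells. Several of the genes, such as Csf1r and the C1q genes, are expressed mainly by these cells, whereas Spp1, Gpnmb, Lgals3 and Cd14 can also be made by other cells, epithelial cells among them.

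Signals are given on the log2 scale of the authors' Robust Multichip Average (RMA) values, where a difference of 1 is a doubling, and differences are total tumour minus biopsy of the same tumour. Series of 5 values run in the order 31D3, 32D1, 37I1, 50I1 and 52I4. The array medians lay between 5.99 and 6.12 and the correlation between arrays over all probe sets between 0.952 and 0.989. Precision is limited by the number of arrays.

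The members differed as a block in 31D3, 37I1 and 50I1, though not all in the same direction, and were more mixed in 32D1 and 52I4. The module's mean log2 signal was 10.09, 9.26, 9.44, 8.36 and 8.56 in the total tumours, against 9.39, 9.41, 7.89, 9.73 and 8.91 in the biopsies. The lowest array of all was the biopsy of 37I1 and the highest the total tumour of 31D3, and the groups overlapped over most of their range. Total tumour minus biopsy was 0.70, -0.15, 1.55, -1.38 and -0.35, that is, 1.62, 0.903, 2.92, 0.385 and 0.782 times the biopsy on the linear scale. The module was thus higher in the total tumour of 31D3 and 37I1 and lower in that of 50I1, with small differences in 32D1 and 52I4. The mean over the 5 tumours was 0.07 with an SD of 1.11 and an SE of 0.494, so no shared direction stood out from the spread between tumours. Leaving out 37I1 gave a mean of -0.30, leaving out 31D3 gave -0.08, and leaving out 50I1 gave 0.43. The median over the members in place of their mean gave -0.04. Between groups the module averaged 9.14 ± 0.700 in total tumours and 9.07 ± 0.719 in biopsies (SD, n = 5 each). In bulk tissue, fewer cells of a type and less RNA per cell cannot be told apart.

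**Figure D1:**
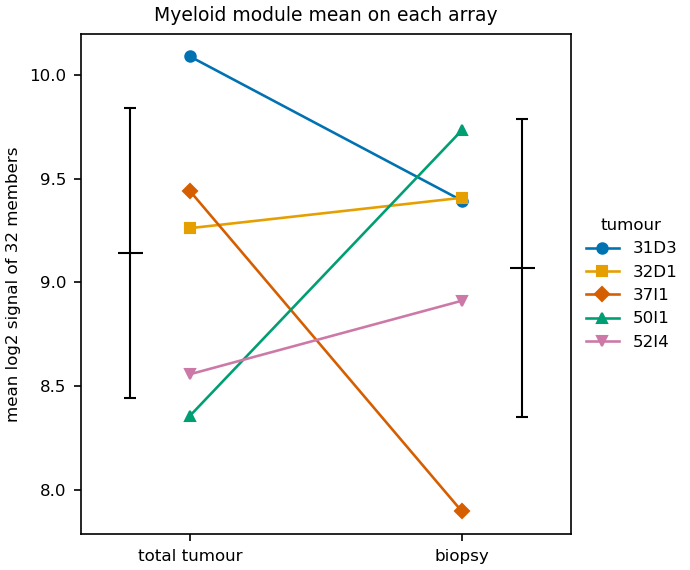
Mean log2 signal of the 32 measured members on each array, with total tumours on the left and biopsies on the right and a line joining the samples of 1 tumour, and the mean with its SD beside each group. The lines cross: 31D3 and 37I1 are higher in the total tumour, by 0.70 and 1.55, and 50I1 is lower by 1.38.

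The direction was shared by nearly all members in the tumours with a large difference. In 37I1 all 32 measured members were higher in the total tumour, in 31D3 30 of 32 were higher, and in 50I1 30 of 32 were lower. In the tumours with small differences, 24 of 32 members were lower in the total tumour of 32D1 and 25 of 32 in that of 52I4. The share of all genes higher or lower within each single tumour was not taken, so these counts stand without that comparison. Of the 31 members past the filter, 20 had the direction of the module mean in each of the 5 tumours, against 6.98% of the 10793 genes past the filter. That direction was taken from the members themselves, so the count is a description. The members' pair differences also varied more between tumours than those of other genes, with a median SD of 1.15 on the log2 scale over the 31 members and 0.295 over all genes past the filter.

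Single arrays carried much of this pattern. The biopsy of 37I1 held the lowest signal of all 10 arrays for 24 of 31 members, against 15.4% of genes past the filter. The biopsy of 50I1 was the highest biopsy for 22 of 31 members, against 15% of genes. Among the total tumours, 31D3 was the highest for 28 of 31 members, against 20% of genes. The spread over tumours was larger in biopsies than in total tumours for 17 of 31 members, close to the 59.2% of all genes.

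No member passed the test of total tumour against biopsy. The test was limma's moderated test with the tumour as a block, adjusted by Benjamini-Hochberg over 18625 probe sets, and it called 0 of them at an adjusted p of 0.05 (0%), with 1133 at an unadjusted p under 0.05. The lowest adjusted p of a member was 0.771, for Spp1, which was also the 1 member of 31 with an unadjusted p under 0.05, against 4.17% of genes. A higher mean in total tumours was found for 17 of 31 members and a lower one for 14, against 51.2% of genes higher. With each array centred on its median the split of the members was 23 higher and 8 lower. Without 37I1, 5 of 31 members had a higher mean, without 31D3 9 of 31, and without 50I1 31 of 31. For centred arrays and with a tumour left out, the share of all genes with a higher mean was not taken. With a tumour left out, the mean difference took the other sign at least once for 27 of the 32 measured members, the exceptions being Spp1, Gpnmb, Lgals3, Cd14 and Csf3r. The median difference was 0.03 over the members and 0.00 over all genes past the filter. None of the 31 members differed in 1 direction in all 5 tumours, against 5.83% of genes, and none had groups that did not overlap, against 0.417% of genes.

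Regulatory sequence shared by members with like differences was looked at in the 250 bases upstream of the RefSeq gene start on the GRCr8 assembly, which were found for 23 of the 32 measured members. Both strands were searched for GAGGAA, the core that the myeloid transcription factor PU.1 binds, for TGANTCA, the AP-1 site, and for CACGTG and CATGTG, E-boxes bound by factors of the MITF and TFEB family. GAGGAA was present in 17 of 23 member promoters, or 73.9%, against 23.3% of all 33469 promoters of this length. TGANTCA was present in 3 member promoters (13%, against 6.34% of all), CATGTG in 5 (21.7%, against 12.1%) and CACGTG in none (against 5.59%). The promoter of Cd68 is shown as that of a member close to the module, that of Lyz2 as a member with the module's direction in each tumour, that of Cd163 as the member with the widest differences, and those of Gpnmb and Spp1 as members that departed from it. Capitals mark the motifs, which read TTCCTC and CACATG where GAGGAA and CATGTG lie on the other strand, and each sequence runs 5′ to 3′ on the strand of its gene.
Cd68, chr10:54882442-54882691, minus strand: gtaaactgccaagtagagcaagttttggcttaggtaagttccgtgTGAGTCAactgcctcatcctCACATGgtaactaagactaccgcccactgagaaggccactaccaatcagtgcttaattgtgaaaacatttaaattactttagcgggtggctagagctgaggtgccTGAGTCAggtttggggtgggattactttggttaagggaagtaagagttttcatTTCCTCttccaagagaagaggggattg
Lyz2, chr7:54798012-54798261, minus strand: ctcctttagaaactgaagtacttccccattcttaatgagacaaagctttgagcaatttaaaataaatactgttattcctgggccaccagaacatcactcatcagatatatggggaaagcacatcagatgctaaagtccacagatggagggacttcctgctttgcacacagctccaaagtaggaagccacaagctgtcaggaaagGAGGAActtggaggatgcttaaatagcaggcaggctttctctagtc
Cd163, chr4:158770524-158770773, plus strand: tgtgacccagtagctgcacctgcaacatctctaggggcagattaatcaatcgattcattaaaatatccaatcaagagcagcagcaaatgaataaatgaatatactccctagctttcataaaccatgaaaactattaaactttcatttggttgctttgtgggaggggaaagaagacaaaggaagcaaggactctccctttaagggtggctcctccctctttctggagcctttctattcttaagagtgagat
Gpnmb, chr4:79340878-79341127, plus strand: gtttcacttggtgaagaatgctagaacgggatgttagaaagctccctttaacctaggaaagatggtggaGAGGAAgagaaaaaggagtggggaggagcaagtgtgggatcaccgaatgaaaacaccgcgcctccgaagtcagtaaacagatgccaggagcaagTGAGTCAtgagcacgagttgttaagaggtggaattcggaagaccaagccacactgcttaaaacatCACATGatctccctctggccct
Spp1, chr14:5619805-5620054, minus strand: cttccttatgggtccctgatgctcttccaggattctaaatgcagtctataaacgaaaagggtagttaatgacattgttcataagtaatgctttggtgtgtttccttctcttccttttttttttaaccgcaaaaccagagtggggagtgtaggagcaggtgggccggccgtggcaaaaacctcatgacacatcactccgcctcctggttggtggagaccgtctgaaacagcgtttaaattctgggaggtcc

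Cd68 held 1 GAGGAA, 2 TGANTCA and 1 CATGTG, and Lyz2 held 1 GAGGAA, 46 bases before the gene start. Gpnmb held 1 of each of these 3 motifs, with GAGGAA at 181 bases and CATGTG at 22 bases before the start. The windows of Spp1 and Cd163 held none of the 4. GAGGAA was also missing from the windows of Ms4a7, Mpeg1, C1qa and Ncf1, of which Ms4a7 and C1qa had the direction of the module in each tumour. A match of these letters is a description of the sequence and not of binding.

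Among the growth factor receptors, Csf1r encodes the receptor through which CSF1 and IL-34 keep macrophages alive. Its signal was 9.32, 8.33, 8.85, 7.59 and 7.72 in total tumours, against 8.81, 8.58, 7.08, 9.57 and 8.26 in biopsies. It was lowest in the biopsy of 37I1 and highest in the biopsy of 50I1, so the biopsies enclosed all 5 total tumours. The mean difference was -0.10 (limma SE 0.494, adjusted p = 0.982). Csf3r, the receptor of the neutrophil growth factor G-CSF, was dim on all arrays, at 3.79 to 4.55 in total tumours and 3.49 to 4.36 in biopsies.

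The Fc receptors bind antibody on the surface of phagocytes, and Fcer1g and Tyrobp are the adaptors that pass on their signals and those of related receptors. Tyrobp followed the module most closely of all members, with a root mean square departure of 0.10 from the mean of the other 31 members. It read 10.18, 9.33, 9.72, 8.34 and 8.76 in total tumours, against 9.61, 9.52, 8.32, 9.81 and 9.13 in biopsies. Its difference was positive in 31D3 and 37I1 and negative elsewhere, with a mean of -0.01 (limma SE 0.386, adjusted p = 0.998). Fcgr1a, the high-affinity receptor of immunoglobulin G, was as close. It read 8.45, 7.80, 8.15, 7.11 and 7.20 in total tumours, against 7.64, 7.83, 6.49, 8.41 and 7.56 in biopsies, and the groups overlapped. Fcer1g ranged from 9.89 to 11.51 in total tumours and from 9.79 to 11.25 in biopsies, with 32D1 nearly equal.

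Fcgr2b, the inhibitory immunoglobulin G receptor, had the same direction as the module but a far wider range. Its signal was 11.03, 9.19, 8.92, 7.91 and 7.87 in total tumours, against 8.94, 9.39, 5.62, 10.19 and 8.77 in biopsies. The biopsy of 37I1 lay far under all other arrays and close to the filter. The differences of 2.10, -0.20, 3.30, -2.28 and -0.91 averaged 0.40 (limma SE 0.802, adjusted p = 0.957). Fcgr3a, an activating receptor whose gene lies next to Fcgr2b on chromosome 13 of GRCr8, behaved otherwise: it read 8.20, 8.39, 8.80, 7.32 and 7.07 in total tumours and 8.49, 7.95, 7.39, 7.67 and 7.82 in biopsies. Its difference was negative in 31D3 and positive in 32D1, where the module was the other way. Fcgr2b, Fcgr3a and the lectin gene Clec4a3 belong to families of close relatives, and whether their probes also read those relatives was not tested.

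The scavenger and pattern receptors take up debris and sense microbes, and they held the member with the widest differences. Cd163, the receptor for haemoglobin bound to haptoglobin, read 8.75, 6.20, 6.83, 5.14 and 5.96 in total tumours, against 6.57, 7.22, 3.93, 8.30 and 6.92 in biopsies. The biopsy of 37I1 and the total tumour of 50I1 both lay under the filter limit of 5.15, whereas the total tumour of 31D3 and the biopsy of 50I1 were the highest. Its differences were 2.18, -1.02, 2.90, -3.16 and -0.95, with a mean of -0.01 (SD 2.51, limma SE 0.886, adjusted p = 0.998). From 37I1 to 50I1 the difference spanned 6.06 on the log2 scale, against 2.92 for the module mean.

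Mrc1, the mannose receptor, had the same pattern. It read 10.43, 9.04, 9.07, 8.11 and 8.18 in total tumours, against 9.07, 9.92, 7.26, 10.52 and 8.96 in biopsies. Only 31D3 and 37I1 were higher in the total tumour, and the mean difference was -0.18 (limma SE 0.619, adjusted p = 0.978). Clec4a3, a C-type lectin receptor of myeloid cells, ranged from 7.76 to 10.10 in total tumours and from 7.01 to 9.91 in biopsies, with the module's direction in all 5 tumours.

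Cd14, the surface partner of the endotoxin receptor, departed from the other receptors. Its signal was 10.97, 10.46, 12.26, 11.90 and 11.21 in total tumours, against 10.34, 11.31, 11.56, 11.22 and 11.11 in biopsies. In 50I1, where 30 of 32 members were lower, Cd14 was higher in the total tumour by 0.68, close to its 0.70 in 37I1. The tumour with a lower value was 32D1, at -0.85. The mean difference was 0.25 (limma SE 0.247, adjusted p = 0.907).

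The 3 chains of C1q, the first component of complement, are encoded by genes that lie side by side on chromosome 5 of GRCr8 with no annotated gene between them, and their differences were alike. C1qa read 12.15, 11.37, 11.78, 10.27 and 10.44 in total tumours, against 11.43, 11.39, 9.99, 12.01 and 11.03 in biopsies. The biopsies of 37I1 and 50I1 were the lowest and highest of their group, and the mean difference was 0.03 (limma SE 0.476, adjusted p = 0.994). C1qb ranged from 9.81 to 11.53 in total tumours and from 9.69 to 11.59 in biopsies, and C1qc from 9.45 to 11.52 in total tumours and from 9.31 to 11.47 in biopsies. The 3 chains together differed by 1.84 in 37I1 and by -1.85 in 50I1.

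The integrin chains Itgam and Itgb2 pair as the complement receptor of myeloid cells, and Adgre1 encodes the surface marker best known from mouse macrophages. Adgre1 read 9.36, 8.34, 8.81, 7.50 and 7.62 in total tumours, against 8.80, 8.62, 6.49, 8.81 and 7.88 in biopsies. The biopsy of 37I1 was again the lowest array. Itgb2 had the same direction in each tumour, with differences of 1.09, -0.38, 1.67, -1.55 and -0.02. Its partner Itgam read 7.03, 6.57, 5.79, 5.84 and 5.97 in total tumours, against 5.88, 6.99, 5.70, 6.68 and 5.58 in biopsies. Itgam differed by only 0.09 in 37I1 and was higher in the total tumour of 52I4, by 0.39.

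The phagocyte oxidase makes superoxide inside the vacuole that holds engulfed microbes. Cybb, its membrane subunit, read 9.10, 8.45, 8.93, 7.35 and 7.84 in total tumours, against 9.08, 8.59, 7.28, 9.37 and 8.34 in biopsies. The samples of 31D3 were nearly equal, and the mean difference was -0.20 (limma SE 0.468, adjusted p = 0.966). Ncf4, a cytosolic subunit, ranged from 6.70 to 8.49 in total tumours and from 6.58 to 8.15 in biopsies. Ncf1, another cytosolic subunit, was close to the filter limit on all arrays, at 4.87 to 5.50 in total tumours and 4.96 to 5.65 in biopsies.

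Among the genes of the lysosome and of killing, Cd68, a glycoprotein of the lysosome membrane used as a stain for macrophages, was the third member close to the module, with a root mean square departure of 0.19. It read 10.39, 9.41, 9.98, 8.38 and 8.62 in total tumours, against 9.82, 9.38, 8.11, 9.84 and 9.01 in biopsies. It was higher in the total tumour of 31D3 and 37I1, nearly equal in 32D1 and lower in the other tumours, with a mean difference of 0.13 (limma SE 0.440, adjusted p = 0.977). Lyz2, the lysozyme that cleaves bacterial walls, read 13.19, 12.69, 12.86, 11.51 and 12.42 in total tumours, against 12.95, 12.83, 10.70, 13.00 and 12.68 in biopsies. The other 4 biopsies lay together, and that of 37I1 was far under them.

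Laptm5, a lysosomal membrane protein of blood cells, read 11.47, 10.11, 10.16, 9.22 and 9.50 in total tumours, against 10.86, 10.34, 8.94, 10.87 and 10.25 in biopsies. It was higher in the total tumour of 31D3 and 37I1 alone, with a mean difference of -0.16 (limma SE 0.404, adjusted p = 0.968). Mpeg1, a pore-forming protein of phagocytes, and Ctss, a cathepsin that trims antigens for class II molecules, were lower by 1.45 and 1.36 in the total tumour of 50I1 and higher by 1.57 and 1.74 in that of 37I1.

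Gpnmb, a membrane glycoprotein of lysosome-rich cells, hardly shared the swing. Its signal was 11.91, 11.10, 11.28, 10.31 and 10.69 in total tumours, against 11.45, 11.14, 10.92, 10.37 and 10.23 in biopsies. The samples of 32D1 and 50I1 were nearly equal, and the total tumour was higher in 31D3, 37I1 and 52I4. The mean difference was 0.24 (limma SE 0.123, unadjusted p = 0.0974, adjusted p = 0.846), and the span between 37I1 and 50I1 was 0.42.

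Aif1, the actin-binding protein known as a macrophage stain, followed the module, with 7.97 to 9.88 in total tumours and 8.09 to 9.72 in biopsies. Ms4a7, a membrane-spanning protein of macrophages, had the third widest differences. It read 10.05, 8.75, 8.32, 7.07 and 7.10 in total tumours, against 8.40, 9.19, 6.07, 9.60 and 8.30 in biopsies. Ptprc and Cd53, which all white blood cells express, were like the macrophage genes: Ptprc read 10.30, 8.99, 8.95, 8.04 and 8.32 in total tumours, against 9.70, 9.53, 7.48, 9.39 and 8.92 in biopsies. Cd53 ranged from 8.80 to 11.25 in total tumours and from 7.81 to 10.61 in biopsies. Both were higher in the total tumour of 31D3 and 37I1 and lower in the other tumours.

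Of the 2 secreted members, Spp1 had the largest departure from the module and Lgals3 a smaller one. Spp1 encodes osteopontin, a phosphoprotein that binds integrins and CD44 and is made by macrophages, by some epithelial cells and by bone cells. Its signal was 10.47, 10.67, 9.74, 10.08 and 9.93 in total tumours, against 10.96, 9.61, 7.98, 9.40 and 8.89 in biopsies. The total tumours lay close together, the biopsies were widely spread, and the highest array was the biopsy of 31D3, so the groups overlapped. Spp1 averaged 10.18 ± 0.385 in total tumours and 9.37 ± 1.09 in biopsies (SD, n = 5 each). The differences were -0.49, 1.06, 1.76, 0.69 and 1.04, with a mean of 0.81, or 1.75-fold, and a limma SE of 0.301. The unadjusted p was 0.0336 and the adjusted p 0.771, so Spp1 did not pass the test. Without the replicate block the unadjusted p was 0.109 (adjusted p = 0.999). Without tumour 31D3 the mean was 1.13, and without 37I1 it was 0.57, with unadjusted p of 0.00145 and 0.1 (limma).

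Against the other 31 members, Spp1 had the module's direction in 37I1 only. Its departure, its own difference minus the mean difference of the others, was -1.22 in 31D3, 1.24 in 32D1, 0.22 in 37I1, 2.13 in 50I1 and 1.43 in 52I4. The mean departure of 0.76 was the largest in size among the 32 members, followed by 0.34 for Fcgr2b, -0.28 for Cybb, -0.26 for Mrc1 and -0.24 for Laptm5. No test was made of the departures. Each tumour left out in turn gave a mean departure of Spp1 between 0.42 and 1.26. That of Fcgr2b was -0.03 without 37I1, and without 50I1 those of Cd14, Gpnmb and Lgals3 were -0.30, -0.13 and -0.06, against 0.19, 0.17 and 0.18 over all 5 tumours.

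Lgals3, galectin-3, a lectin of macrophages and epithelial cells, read 13.09, 12.62, 12.76, 12.01 and 11.95 in total tumours, against 12.33, 12.67, 12.21, 12.26 and 11.70 in biopsies. It was higher in the total tumour of 31D3, 37I1 and 52I4, with a mean difference of 0.25 (limma SE 0.166, unadjusted p = 0.178, adjusted p = 0.873). In 50I1 it differed by -0.24, against -1.38 for the module.

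**Figure D2:**
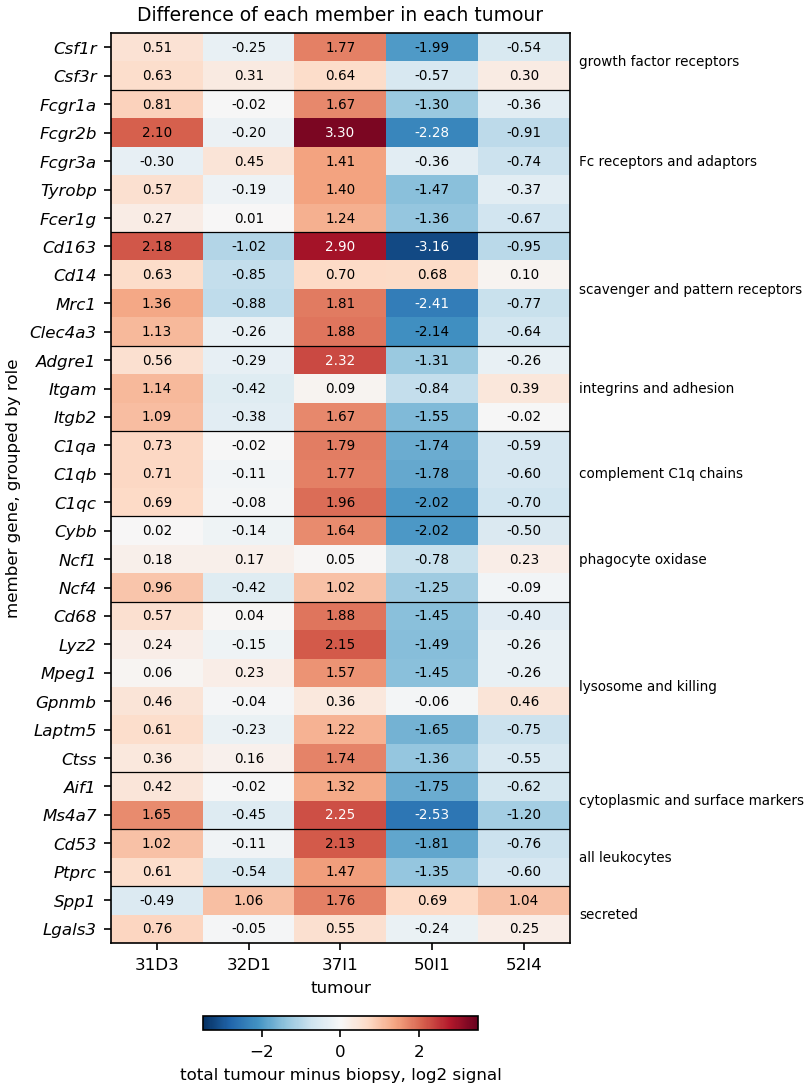
Difference in log2 signal, total tumour minus biopsy, for each measured member (rows) in each of the 5 tumours (columns), with higher values in red and lower in blue. The columns of 37I1 and 50I1 have opposite colours in nearly all rows, while Spp1 and Cd14 are higher in the total tumour in both, and Gpnmb differs little in either.

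**Figure D3:**
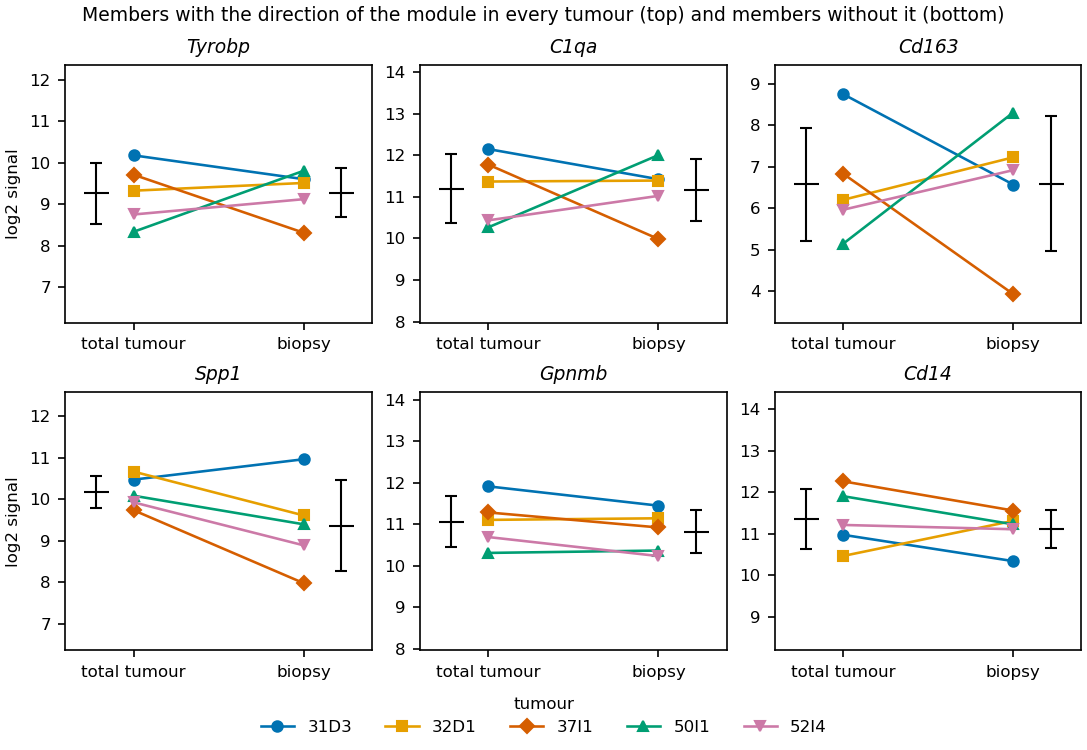
Log2 signal of 6 members, total tumour on the left and biopsy on the right of each panel, with a line for each tumour and the mean with its SD beside each group. Tyrobp, C1qa and Cd163 have the direction of the module in every tumour, with a span of 6.06 between the differences of 37I1 and 50I1 for Cd163, while Spp1, Gpnmb and Cd14 do not.

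Of the members, 27 had 1 probe set. The second probe sets of Laptm5, Cybb and Ptprc gave mean differences of -0.15, -0.31 and -0.20, on the side of the ones used. In 31D3, however, Cybb differed by 0.02 with the probe set used and by -0.04 with the second. Its count among members with the module's direction in each tumour thus rested on the probe set used. For Mpeg1 the second gave -0.12, against 0.03 for the one used, with both means small beside their spread. The second probe set of Aif1 lay below the filter.

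Other genes had the same profile over the arrays. With each gene centred on its own mean over 10 arrays, the non-members closest to the module mean were P2ry6 at a root mean square distance of 0.118, Glipr1 at 0.134, LOC100910973 at 0.137, Tbxas1 at 0.151, and Slc15a3 and Myo1f at 0.152. Vav1 followed at 0.158, RT1-DMa at 0.162, Runx3 at 0.168 and Gngt2 at 0.17. P2ry6, a receptor for extracellular nucleotides, differed by 0.96, -0.26, 1.58, -1.45 and -0.24 in the 5 tumours. Tbxas1 encodes thromboxane synthase and RT1-DMa a chain that loads class II molecules, and both were higher in the total tumours of 31D3 and 37I1 and lower in that of 50I1. The median distance was 0.239 over the 31 members and 0.694 over all genes past the filter, and 17 of the 100 closest genes were members. The members form the mean they are set against, and all arrays are shared, so these distances are a description.

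Genes that act around the module were read from further lists, and none of their genes passed an adjusted p of 0.05. Of the growth factor list, which holds Csf1, Il34 and the GM-CSF receptor chains, 4 of 7 genes lay past the filter, 2 higher and 2 lower, with mean differences of 0.09 for Csf1 and 0.32 for Il34 (limma SE 0.468). Of 12 myeloid transcription factors, 9 lay past the filter, 5 higher and 4 lower. Irf8, which guides monocyte development, differed by -0.28 (limma SE 0.356), and Nr1h3, a sterol-sensing nuclear receptor, by 0.22 (limma SE 0.130). The list mean of the transcription factors was 0.47, -0.24, 0.93, -0.84 and -0.34 in the 5 tumours, on the module's side in each. Of the 9 factors past the filter, however, only 2 had the module's direction in each tumour.

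Chemokines and receptors that draw monocytes had 9 of 11 genes past the filter, 3 higher and 6 lower, with list means of 1.34, -0.10, 0.58, -1.27 and -0.69. Ccl2, the main monocyte attractant, differed by 2.08 in 31D3 and by -2.18 in 50I1, with a mean of -0.44 (limma SE 0.567). Ccl5 averaged 0.70 (limma SE 0.552). Ccr2, the receptor of Ccl2, was 6.12 ± 0.830 in total tumours and 6.39 ± 1.33 in biopsies (SD, n = 5 each).

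Of 33 other macrophage genes, 24 lay past the filter, 15 higher and 9 lower, and 9 had the direction of the module in each tumour. Hmox1, the heme-degrading enzyme, differed by 1.72, -0.37, 0.55, 1.20 and 0.38, a mean of 0.70 (limma SE 0.292, unadjusted p = 0.0515, adjusted p = 0.817), and so was higher in the total tumour of 50I1 where the module was lower. Cd36, a fatty acid transporter and scavenger receptor, averaged 0.66 (limma SE 0.380, adjusted p = 0.846). Among the genes of macrophage activation, 7 of 13 lay past the filter, 4 higher and 3 lower, with 0.22 for Nos2 and 0.28 for Arg1, the enzymes that use arginine.

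Lysosomal hydrolases and other lysosomal proteins, which macrophages are rich in and many of which other cells hold too, gave a narrower range of list means. Of 16, 14 lay past the filter, 13 higher and 1 lower, with list means of 0.18, 0.15, 0.61, -0.39 and 0.24. Ctsl, cathepsin L, had a mean difference of 0.27 (limma SE 0.117, unadjusted p = 0.0551, adjusted p = 0.828). Of the receptors and cleaving enzymes of osteopontin, 10 of 12 lay past the filter, 7 higher and 3 lower. Cd44 differed by 0.29 (limma SE 0.206) and Mmp7, a protease that cuts osteopontin, by 0.80 (limma SE 0.539).

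Markers of other cell types differed beside the module, and their part in its differences was not tested. Of 15 T and natural killer cell genes, 14 lay past the filter and 11 of these had the direction of the module in each tumour. The list mean was 6.08 to 8.86 in total tumours and 5.22 to 7.37 in biopsies, with differences of 1.73, -0.27, 1.66, -1.29 and -0.72. B and plasma cells were read from Jchain alone, as 1 of 7 genes lay past the filter, and it differed by 2.31, 0.83, 3.76, -2.92 and -0.93. Fibroblast genes, 11 of 11 past the filter, ranged from 10.03 to 11.13 in total tumours and from 7.93 to 11.23 in biopsies. Their lowest array was also the biopsy of 37I1 and their highest that of 50I1. In 52I4 fibroblast genes differed by 1.36, against -0.35 for the module, and none of the 11 had the module's direction in all 5 tumours.

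The list mean of epithelial markers, 11 of 11 past the filter, lay between 11.32 and 11.73 in total tumours and between 11.25 and 11.70 in biopsies. It differed by -0.07, 0.06, 0.02, 0.33 and 0.19. Single genes could vary more than this mean, and the widest, Elf5, differed by 0.22, -2.06, 1.99, 0.96 and 0.46. Mast cell genes, all 7 past the filter, had a lower mean in the total tumour of each of the 5 tumours, by differences of -0.59, -0.27, -1.29, -1.28 and -1.29, and so did not share the module's sign in 31D3 and 37I1. Neutrophil genes had 5 of 15 past the filter, 3 higher and 2 lower, with S100a8 at 1.52 (limma SE 0.427), S100a9 at 1.60 (limma SE 0.402), Lcn2 at 0.22, Mmp9 at -0.15 and Padi4 at -0.01. Of these, S100a8 and S100a9 had an unadjusted p under 0.05 and none passed after adjustment. Dendritic cell genes had 5 of 10 past the filter, 3 higher and 2 lower. Their list means were 0.48, -0.21, 1.11, -1.13 and -0.53, on the module's side in each tumour, but only 2 of the 5 genes had that direction throughout. The largest mean difference among the 5 genes was that of Batf3, a factor of dendritic cell development, at -0.35. Endothelial genes differed by 0.68, -0.53, 0.43, -0.93 and 0.95, and proliferation genes by 1.08, -0.63, -0.52, 0.80 and 1.05, so the cycling genes had the opposite sign to the module in 37I1, 50I1 and 52I4. Skeletal muscle was read from Acta1 alone, as 1 of 7 genes lay past the filter. The other measured genes of that list were dim, with means over all arrays from 3.01 for Myh4 to 4.08 for Mb. Acta1 reached 9.48 in the total tumour and 11.93 in the biopsy of 37I1. In 50I1 it read 4.76 in the total tumour and 8.13 in the biopsy, and on the other 6 arrays it lay between 4.04 and 4.91.

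**Figure D4:**
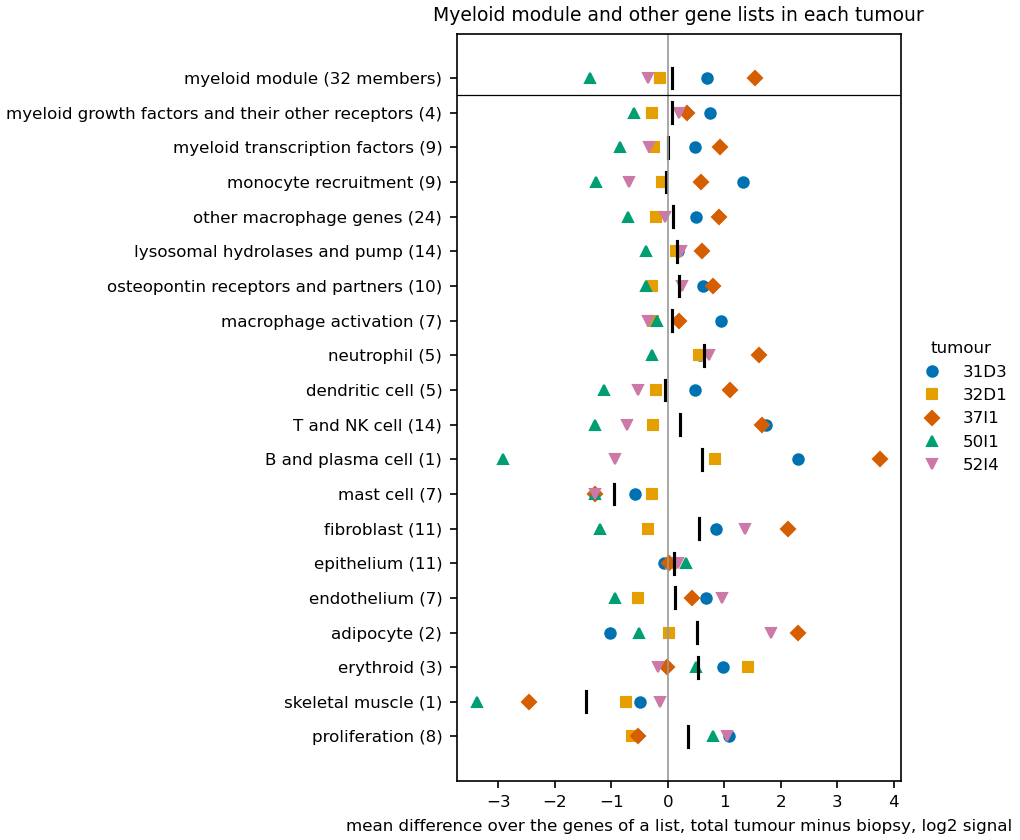
Mean difference in log2 signal, total tumour minus biopsy, over the genes of the module and of other lists, with a point for each tumour and a bar at the mean of the 5. The module and the T and natural killer cell list each spread from under -1 to over 1.5, the epithelial list stays between -0.07 and 0.33, and the mast cell list lies below 0 in each tumour.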

How the data were processed

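The authors deposited 1 log2 signal per probe set for each of 10 Affymetrix Rat Genome 230 2.0 arrays, and per the submitters' processing notes the method was RMA, which forces the arrays onto 1 distribution, so a shift shared by most transcripts is removed. That the scale is log2 follows from the range of the values, 2.34 to 14.26. Chip definition and RMA version: not given in the sources used here. The labels credit the study's statistics to GeneSpring GX 7.3.

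Of 31099 probe sets, 57 controls were left out, 20826 of the rest matched 1 gene in GEO's platform annotation, 436 matched several and were not named, and the dimmest 40% by mean signal were left out, with a limit of 5.15. The other 18625 were tested with limma 3.58.1 (lmFit, then eBayes) under R 4.3.3. The tumour was a block, following the paired test of the study, and p-values were adjusted by Benjamini-Hochberg. The labels give the same 5 tumour names in both groups, and the deviations from the group means correlated above 0.1 in 4 of 5 pairs, with -0.214 in 50I1. Some samples of different tumours correlated above 0.1 as well. The total tumour of 31D3 correlated at 0.357 with the biopsy of 50I1, against 0.201 with its own biopsy. That of 50I1 correlated at 0.293 with the biopsy of 37I1. The pairing therefore rests on the tumour names in the labels.

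The module mean is the mean over the 32 measured members. Values on every array are given for Spp1, the 5 members with the largest mean departure, the 3 with the smallest p, the 3 closest to the module and 1 or 2 per role. From other lists, up to 2 genes by p and up to 2 by difference could be named, and Ccr2, Lcn2, Mmp9 and Padi4 were named besides these after their values were seen. The members and lists were chosen with earlier results of these data known. The fit was checked on simulated data. Promoters are from RefSeq, and motifs were searched in Python 3.11.15. Alternatives covered the filter, block, test, variance model, scaling, probe sets per gene and each tumour left out.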

Additional observations from a re-analysis of the deposited data

Results flagged for a closer look

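Values far from the rest of their group were looked for with Dixon's test at the 95% level in 99 groups of 5 values, of which chance alone would mark about 1 in 20, and 4 were found. Lyz2 read 10.70 in the biopsy of 37I1, while the other 4 biopsies lay between 12.68 and 13.00. Cd53 read 7.81 in the same biopsy, while the others lay between 9.81 and 10.61. The total tumour minus biopsy difference of Ncf1 was -0.78 in 50I1, against 0.05 to 0.24 in the other 4 tumours. That of Csf3r was -0.57 in 50I1, against 0.30 to 0.64 in the others. Ncf1 lay close to the filter limit and Csf3r below it.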

How the results depend on the processing

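Of 450 values recomputed, 11 moved past a limit, which was 1 SD over the tumours for a value with no test and 1.5 times for a count. Signs were less steady: 67 values took the other sign, 57 of them with a tumour left out. These included the mean difference of 27 of 32 members, none of which had passed a test, and 4 mean departures. No setting called a probe set or a member after adjustment. Probe sets with an unadjusted p under 0.05 numbered 1133, against 2128 with no filter, 523 with the mean of a gene's probe sets and 570 to 1530 with a tumour left out. The methods' paired t-test gave 1013, and 0 after Benjamini-Hochberg, and the fit with no replicate block gave 869. Members with an unadjusted p under 0.05 numbered 1, against 0 with no replicate block, 0 by the methods' paired t-test and 0 to 1 with a tumour left out, the 1 being Spp1 without 31D3 and Cd14 without 32D1. Members with a higher mean numbered 17, against 5 without 37I1, 9 without 31D3 and 31 without 50I1, so their split rested on single tumours, and 23 with centred arrays. The mean difference of the module, 0.07, was -0.30 to 0.43 with a tumour left out and -0.04 with the median over members. The mean difference of Spp1 was 0.57 to 1.13 (adjusted p 0.621 to 1 by limma). The cause of these moves was not tested, and some settings also differ in the number of probe sets or tumours they leave. Probe sets near the limit of 5.15, such as Ncf1 and the low arrays of Cd163, carry little signal over background.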
